A study of Mus musculus with 10 samples.

Results

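The genes described here are 10 transcription factors and targets of the ATF4 stress response: Atf4, Atf5, Atf3, Ddit3, Trib3, Asns, Sesn2, Nupr1, Stc2 and Ddit4. They were taken by symbol from a table of 21898 gene rows. The symbols matched 11 rows, since Ddit3 has a second row of 105 bases, ENSMUSG00000116429, with no reads in any library. The other 10 rows all had enough reads to be among the 11403 genes tested. Bulk RNA sequencing had measured messenger RNA in CD8+ T cells, the cytotoxic lymphocytes, from the spleen of mice of genotype WT. The control group was cultured without an added agent and the NAC group with 10 mM N-acetylcysteine (NAC), a thiol that supplies cysteine. Both were in culture for 5 days, with 5 libraries each, numbered 1 to 5. The labels give neither the animals' age nor how the cells were stimulated. Nothing in them says that each library came from its own animal; the p-values here therefore reflect variation among the libraries, possibly technical.

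ATF4 is a basic leucine zipper factor whose translation rises when initiation factor eIF2 alpha is phosphorylated, for example by GCN2 during amino acid shortage or by PERK in a stressed endoplasmic reticulum. It switches on genes for amino acid synthesis and import, and further factors such as CHOP, the product of Ddit3, which act with it or limit it. In T cells this response is known for supporting amino acid supply during growth after activation. Much of ATF4's control is at translation, which mRNA levels do not show.

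Control and NAC libraries alike divided into sets by their numbers, and this bears on every result below. Totals were 13.3 to 17.71 M reads per library. In CPM (counts scaled to library size with TMM factors), Cd4, which marks helper T cells, ranged from 464 to 521 in the 4 libraries numbered 1 and 2, and from 0.765 to 2.76 CPM in the 6 libraries numbered 3 to 5. Summed over 4 markers of CD4 T cells the ranges were 604 to 658 CPM and 20.4 to 34.9 CPM, with no marker at 0. Cd8a, which marks cytotoxic T cells, ranged from 201 to 270 CPM in the first set and from 487 to 666 CPM in the second. Libraries 1 and 2 therefore go against their CD8+ label in part, and each result is given within the 2 sets as well as over all libraries. Some markers also differed with NAC. The 4 CD4 markers summed to 20.4 to 23.1 CPM in control libraries 3 to 5 and to 31.1 to 34.9 CPM with NAC, mostly from Zbtb7b (17.6 to 18.9 and 27.2 to 29.8 CPM). Their sum overlapped in libraries 1 and 2 (625 to 642 and 604 to 658 CPM), though Cd40lg was lower with NAC (97.6 to 108 and 53.2 to 64.2 CPM), as was Foxp3 (4.24 to 4.52 and 1.30 to 1.57 CPM). Cd8b1, the other CD8 chain, was higher with NAC in both sets, at 83.8 to 84.2 and 127 to 148 CPM in the first and at 282 to 290 and 369 to 413 CPM in the second. Cd8a, Cd3d, Cd3e and Cd3g were also higher with NAC in both sets, but Cd5 and Thy1 were not. Cd5 was lower in libraries 1 and 2 (579 to 617 and 360 to 401 CPM) and in libraries 3 to 5 (425 to 439 and 302 to 337 CPM). Thy1 overlapped in the first set and was lower in the second (671 to 691 and 557 to 589 CPM). Cd79b, a chain of the B cell receptor complex, ranged from 1.53 to 2.67 CPM in control libraries 1 and 2 and from 9.07 to 10.9 CPM with NAC, and from 4.36 to 7.77 and 10.3 to 11.8 CPM in libraries 3 to 5. Other B cell markers were low and mixed in libraries 1 and 2. Cd79a (0.303 to 0.565 and 0.782 to 1.57 CPM) and Cd22 (0 and 0.456 to 1.30 CPM) were higher with NAC, Ms4a1 was lower (0.182 to 0.226 and 0 CPM), and Pax5 was at 0 in all 4. The part of other cell types in the differences below was not tested, and in bulk samples fewer cells of a type and less RNA per cell cannot be told apart.

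Promoter windows of 300 bases from RefSeq (build GRCm38.p6, 250 bases before to 50 bases after each gene's start) were matched for all 10 genes, in 11 windows. They were searched on both strands for TGATGNAA, the core of the C/EBP-ATF element through which ATF4 is known to act. It was found in windows of 4 of the 10 genes and in 3.97% of all 32851 windows, and in 2 of the 4 it had the form TGATGCAA, found in 0.895% of windows. The cyclic AMP element TGACGTCA was found in 1.79% of all windows and in no window of the 10 genes. All 4 matches are shown, in Atf3, Nupr1, Asns and Trib3, so that the letters stand beside the values of their genes below; a link between match and change was not tested. Each is on the gene's own strand, 5′ to 3′, with the match in capitals. A match is a description of the letters and not a bound site.
Atf3, chr1:191183412-191183467, minus strand, match 110 to 103 bases before the start: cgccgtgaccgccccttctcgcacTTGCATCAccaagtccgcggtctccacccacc
Nupr1, chr7:126625549-126625604, minus strand, match 110 to 103 bases before the start: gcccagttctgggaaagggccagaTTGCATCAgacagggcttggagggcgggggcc
Asns, chr6:7693210-7693256, minus strand, match 23 to 16 bases before the start: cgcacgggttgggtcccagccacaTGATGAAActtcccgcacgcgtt
Trib3, chr2:152344029-152344056, minus strand, match 15 to 22 bases after the start: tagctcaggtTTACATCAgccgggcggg

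The untreated cultures already differed strongly in these genes. In edgeR's quasi-likelihood test of control libraries 3 to 5 against control libraries 1 and 2, 9 of the 10 genes were higher in libraries 3 to 5 and Ddit4 was not called. Ddit4 was called lower there without NAC 1 (log2 difference -0.17, adjusted p = 0.00511) or NAC 2 (-0.18, 0.00394). Of all genes tested, 51.5% were called in that comparison, 26.2% higher and 25.3% lower. The median log2 difference was 2.13 over the 10 genes and 0.00 over all genes tested. The largest differences were in Nupr1 and Trib3, followed by Ddit3, and Stc2 and Ddit4 differed least.

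Per length of gene, on the authors' FPKM scale, the order of the genes itself differed between the sets. In control libraries 3 to 5 the mean level fell from Atf4 at 364 FPKM to Asns at 165, Trib3 at 112, Ddit3 at 46.4, Ddit4 at 40.7, Atf3 at 34.5, Sesn2 at 32.9, Atf5 at 23.7, Nupr1 at 13.8 and Stc2 at 13.6 FPKM. Atf3 and Sesn2 overlapped in that order, as did Nupr1 and Stc2. In control libraries 1 and 2 Atf4 was again first, at 182 FPKM, but Ddit4 came next at 47.3 FPKM, before Asns at 26.8 FPKM and Sesn2 at 13.1 FPKM. Sesn2 overlapped there with Atf3 and Stc2, both at 11.5 FPKM, which also overlapped each other, as did Ddit3 at 5.34 FPKM and Trib3 at 5.28 FPKM. Atf5 was at 3.84 FPKM and Nupr1 last at 0.501 FPKM. Relative to Atf4, Trib3 was thus at 2.90% in libraries 1 and 2 and at 30.8% in libraries 3 to 5.

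**Figure D1:**
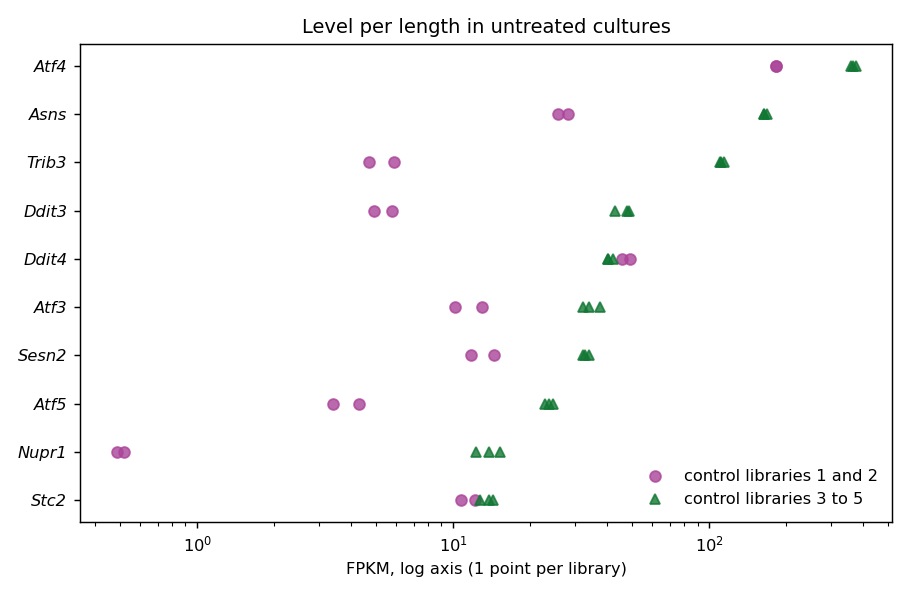
FPKM (log axis) of each gene in the untreated libraries, 1 point per library, circles for libraries 1 and 2 and triangles for libraries 3 to 5, ordered by the mean in libraries 3 to 5. Nupr1 and Trib3 lie farthest apart between the sets, at 0.501 against 13.8 and 5.28 against 112 FPKM on average, while Ddit4 and Stc2 lie close together.

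The comparison of NAC with control over all libraries asks how the thiol changes these genes, with the difference between the sets counted as spread. Only Ddit4 passed, and it rose; the other 9 genes did not pass. Of all genes tested, 11.6% were called, 6.69% higher and 4.88% lower. The median log2 change of the 10 genes was -0.11, against 0.01 over all genes tested. Libraries of the same number deviated together, but hardly more than others of the same set. With the library number as a block, Atf3 (log2 change -1.0, adjusted p = 0.029) and Sesn2 (-0.45, adjusted p = 0.0182) were also called, both lower, in edgeR's quasi-likelihood test. A term for the set called the same genes among the 10, but 4155 of all genes tested against 2254 with the block.

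Within the sets the same treatment gave different patterns. In libraries 1 and 2, 9 of the 10 genes were called, 6 higher and 3 lower, where 60.5% of all genes tested were called, 32.2% higher and 28.3% lower. Asns rose most and Atf3 fell most. In the second set, libraries 3 to 5, 4 of the 10 were called, Ddit4 higher and Atf3, Sesn2 and Nupr1 lower, where 29.0% of all genes were called, 15.0% higher and 14.0% lower. Control and NAC values did not overlap for 8 of the 10 genes in each set, where 74.1% of all genes did not overlap in libraries 1 and 2 and 54.6% in libraries 3 to 5. With such wide calling over all genes the counts say little about these genes in particular, and the single values carry the description. The 10 genes had a median log2 change of 0.48 in the first set and of -0.12 in the second, against 0.04 and 0.00 over all genes tested.

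**Figure D2:**
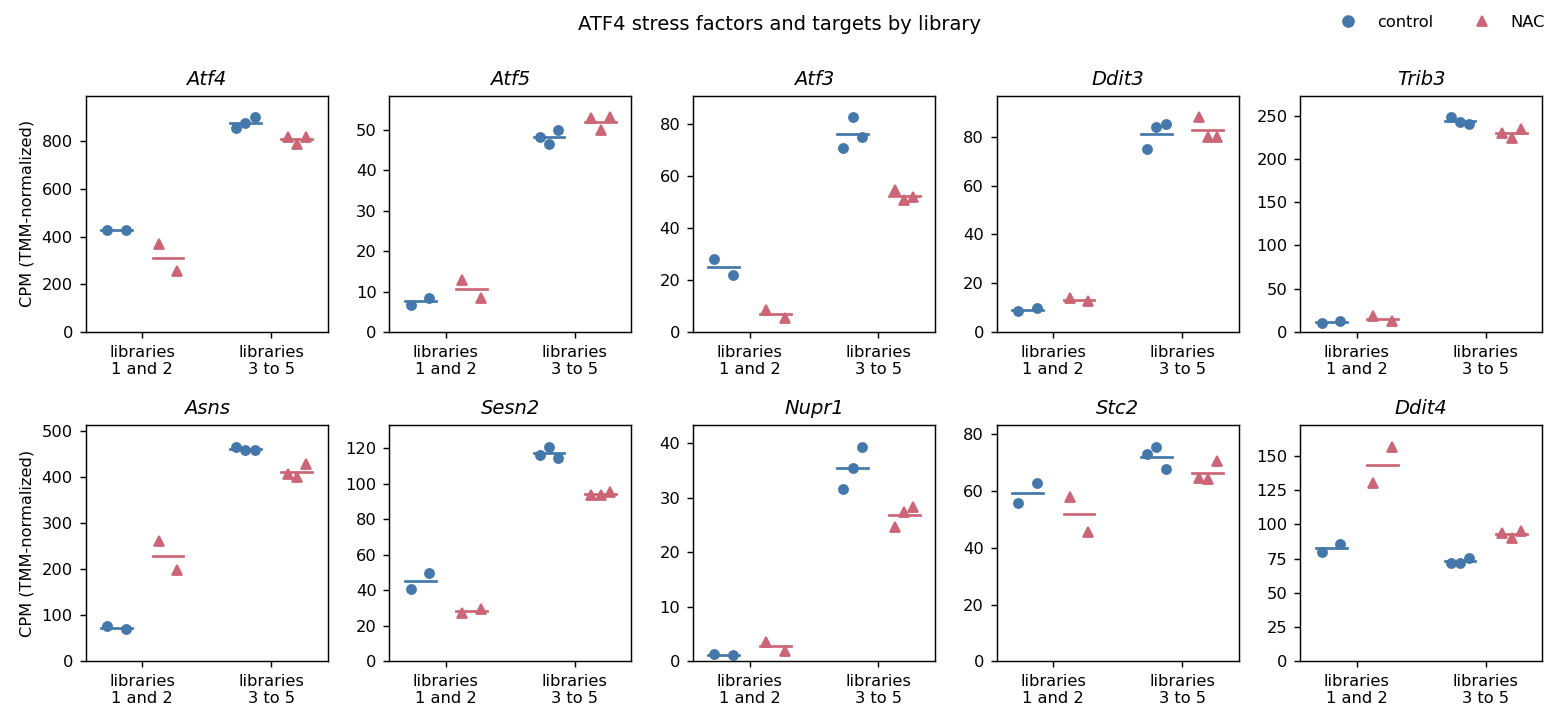
CPM of each gene in all 10 libraries, circles for control and triangles for NAC, with a line at each mean; the y axes start at 0 and differ between genes. For 9 genes all control libraries 3 to 5 lie above all control libraries 1 and 2, and Ddit4 is the gene in which all NAC libraries lie above all control libraries. The share of all genes whose control sets do not overlap was not counted, and 51.5% of all genes tested were called between these sets.

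Atf4 encodes the factor itself. ENSMUSG00000042406, on chromosome 15, was at 429 and 427 CPM in control libraries 1 and 2 and at 858, 877 and 902 CPM in control libraries 3 to 5. The NAC libraries read 369 and 255 CPM in the first set, and 819, 788 and 816 CPM in the second. The NAC values lay below the control values in each set without overlap, though NAC 1 and NAC 2 stood well apart from each other. In edgeR's test Atf4 fell in libraries 1 and 2 (log2 change -0.46 ± 0.12 SE, adjusted p = 0.00576). The log2 change in libraries 3 to 5 was -0.12 ± 0.10 (adjusted p = 0.381), and the test of the difference between the sets gave an adjusted p of 0.103. The fall was -0.74 without NAC 1 and -0.21 without NAC 2, and the difference between the sets was 0.62 and 0.09. Each of these fits leaves 1 NAC library in the first set, so only the sizes are given. A fit to libraries 1 and 2 alone did not call the fall there (adjusted p = 0.0595). A fit to libraries 3 to 5 alone called the small fall in that set (-0.12, adjusted p = 0.000988). That small fall was also called, again at -0.12, without NAC 1 or without NAC 2.

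Atf5 encodes a related leucine zipper factor whose translation is controlled in a similar way. ENSMUSG00000038539, on chromosome 7, read 6.78 and 8.49 CPM in controls 1 and 2 and 8.42 to 12.8 CPM with NAC. In the other set it was at 46.5 to 50.0 CPM in control and at 50.0 to 53.2 CPM with NAC. The step between the sets, 6.33-fold in control, was far larger than any change with NAC. The NAC and control values overlapped in libraries 1 and 2, where the log2 change was 0.48 ± 0.18 (edgeR adjusted p = 0.0295). That call ended without control 1 (adjusted p = 0.216) or NAC 1 (log2 change 0.15, adjusted p = 0.443), and the change was 0.76 without NAC 2. The sets differed by -0.37 (adjusted p = 0.162), or by -0.65 without NAC 2, a fit that leaves 1 NAC library in the first set. In the table the gene's span overlaps Il4i1 and Nup62 on the other strand. Nup62 was at 151 to 202 CPM in all libraries, and the files do not say whether strand was used in counting.

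Atf3 encodes a leucine zipper factor that is induced by many stresses and often represses. ENSMUSG00000026628, on chromosome 1, was at 27.9 and 21.8 CPM in control libraries 1 and 2, and at 8.48 and 5.35 CPM with NAC. It was at 70.8, 82.5 and 74.7 CPM in control libraries 3 to 5, and at 54.5, 50.6 and 51.7 CPM with NAC. All NAC values lay below all control values within each set. It fell 3.59-fold in the first set (log2 change -1.84 ± 0.18 SE, edgeR adjusted p = 1.97e-06) and 1.45-fold in libraries 3 to 5 (-0.54 ± 0.11, adjusted p = 0.00318). The fall was larger in libraries 1 and 2: the difference between the sets was 1.30 ± 0.21 on the log2 scale (adjusted p = 0.000416). Of the transcription factor genes among the 10, Atf3 was the only one with a call in the same direction in both sets.

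Ddit3 encodes CHOP, a partner of C/EBP factors that promotes cell death when stress persists. ENSMUSG00000025408, on chromosome 10, read 8.42 and 9.82 CPM in controls 1 and 2 and 13.8 and 12.7 CPM with NAC. The second set read 74.9, 83.8 and 85.2 CPM in control and 88.1, 79.9 and 79.9 CPM with NAC. The values did not overlap in libraries 1 and 2, where Ddit3 rose (log2 change 0.54 ± 0.12, edgeR adjusted p = 0.00229), and overlapped in libraries 3 to 5 (0.02 ± 0.07, adjusted p = 0.855). The difference between the sets was -0.51 ± 0.15 (adjusted p = 0.0127), and it was no longer called without control 1 (adjusted p = 0.081). The span overlaps Mars1, a gene of the other strand at 187 to 260 CPM, whose reads in the shared stretch cannot be told apart without strand.

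Nupr1 encodes a small chromatin protein of the stress response. ENSMUSG00000030717, on chromosome 7, had only 23 and 20 reads in control libraries 1 and 2, or 1.30 and 1.21 CPM, and 55 and 29 reads with NAC, or 3.59 and 1.89 CPM. The second set had 412 to 643 reads per library, at 31.6, 35.4 and 39.4 CPM in control and 24.7, 27.4 and 28.3 CPM with NAC. The gene rose with NAC in the first set and fell in the other, with no overlap in either. Nupr1 changed by 1.12 ± 0.32 on the log2 scale in libraries 1 and 2 (edgeR adjusted p = 0.0082), and by -0.41 ± 0.12 in libraries 3 to 5 (adjusted p = 0.0255), and the sets differed by -1.53 ± 0.34 (adjusted p = 0.00341). The rise was not called without NAC 1 (0.59, adjusted p = 0.156) or in libraries 1 and 2 alone (0.0561). The fall was not called without control 4, control 5, NAC 3, NAC 4 or NAC 5 (adjusted p 0.0529 to 0.128).

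Trib3 encodes a pseudokinase that binds ATF4 and limits it and restrains the kinase AKT. ENSMUSG00000032715, on chromosome 2, read 9.95 and 12.4 CPM in controls 1 and 2 and 18.4 and 12.6 CPM with NAC. Controls 3 to 5 read 248, 243 and 240 CPM, and their NAC counterparts 230, 224 and 235 CPM. NAC 2 was close to control 2, and NAC 1 was the high value of its set. Between the control sets Trib3 differed 21.8-fold (log2 difference 4.45 ± 0.13, edgeR adjusted p = 5.19e-11). With NAC it rose by 0.47 ± 0.15 on the log2 scale in libraries 1 and 2 (adjusted p = 0.0152); the value for libraries 3 to 5 was -0.09 ± 0.09 (0.483), and the sets differed by -0.56 ± 0.17 (0.0204). Without control 1 or NAC 1 neither the rise (adjusted p = 0.156 and 0.204) nor the difference (0.136 and 0.0859) was called; the change was 0.18 without NAC 1 and 0.72 without NAC 2.

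Asns encodes asparagine synthetase, a standard target of ATF4 when amino acids are short. ENSMUSG00000029752, on chromosome 6, was at 76.8 and 69.6 CPM in control libraries 1 and 2 and at 261 and 199 CPM with NAC. It was at 467, 460 and 458 CPM in control libraries 3 to 5 and at 408, 400 and 428 CPM with NAC. NAC libraries 1 and 2 lay well above their controls but below every library of the other set, and NAC libraries 3 to 5 lay slightly below theirs. The rise was 3.14-fold in libraries 1 and 2 (log2 change 1.65 ± 0.11 SE, edgeR adjusted p = 7.57e-08). The second set gave a log2 change of -0.16 ± 0.08 (adjusted p = 0.151), and the sets differed by -1.81 ± 0.13 (adjusted p = 1.47e-06), the largest difference among the 10 genes. The small fall in libraries 3 to 5 was called when NAC 1 (adjusted p = 0.000139) or NAC 2 (0.000149) was left out, and when the set was fitted alone (3.04e-05). The ratio of mean CPM in libraries 3 to 5 to that in libraries 1 and 2 was 6.30 in control and 1.79 with NAC.

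Sesn2 encodes sestrin 2, a leucine-binding brake on the growth kinase complex mTORC1. ENSMUSG00000028893, on chromosome 4, read 40.7 and 49.8 CPM in controls 1 and 2 and 27.3 and 29.4 CPM with NAC. The second set read 116, 121 and 114 CPM in control and 93.5, 93.5 and 95.3 CPM with NAC. NAC values lay below control values in both sets without overlap. It fell in the first set (log2 change -0.67 ± 0.10, edgeR adjusted p = 5.56e-05) and in the second (-0.31 ± 0.07, adjusted p = 0.00541). The sets differed by 0.36 ± 0.12 (adjusted p = 0.0283), a call that ended without control 2, control 5, NAC 3, NAC 4 or NAC 5 (adjusted p 0.0532 to 0.177).

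Ddit4 encodes REDD1, which restrains mTORC1 through the TSC complex and is also induced by glucocorticoids and low oxygen. ENSMUSG00000020108, on chromosome 10, was at 80.1, 85.4, 71.6, 72.1 and 75.5 CPM in control libraries 1 to 5. With NAC it was at 130, 157, 93.8, 89.9 and 95.2 CPM in the same order. All 5 NAC values lay above all 5 control values, which was so for 16.4% of all genes tested in either direction. Over all libraries the mean was 76.9 ± 5.82 CPM in control and 113 ± 29.3 CPM with NAC (SD, n = 5), a log2 change of 0.56 ± 0.16 (SE; edgeR adjusted p = 0.0422). That call was lost when any of the controls, NAC 1 or NAC 2 was dropped (adjusted p 0.0681 to 0.0914). Within the sets it rose by 0.79 ± 0.09 in the first (adjusted p = 5.72e-06) and by 0.35 ± 0.07 in the second (0.00329). It was larger in libraries 1 and 2 (difference -0.45 ± 0.11, adjusted p = 0.00682), and all leave-one-out fits kept these 3 calls. Thus the 2 brakes on mTORC1 among these genes moved in opposite directions with NAC in each set.

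Stc2 encodes stanniocalcin 2, a secreted glycoprotein that is induced by stress of the endoplasmic reticulum. ENSMUSG00000020303, on chromosome 11, ran from 55.8 to 75.6 CPM in control and from 45.6 to 70.4 CPM with NAC. The groups overlapped within both sets and over all libraries. The log2 change of -0.20 ± 0.11 in libraries 1 and 2 did not pass (edgeR adjusted p = 0.137), nor did that of -0.12 ± 0.09 in libraries 3 to 5 (0.331). The small step between the control sets (0.28 ± 0.10, adjusted p = 0.0304) was not called without control 1, control 3 or control 4 (adjusted p 0.0852 to 0.243). The NAC change in libraries 1 and 2 was -0.37 without NAC 1, a fit that leaves 1 NAC library there. With no filter on low counts that change was called (-0.25, adjusted p = 0.049).

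**Figure D3:**
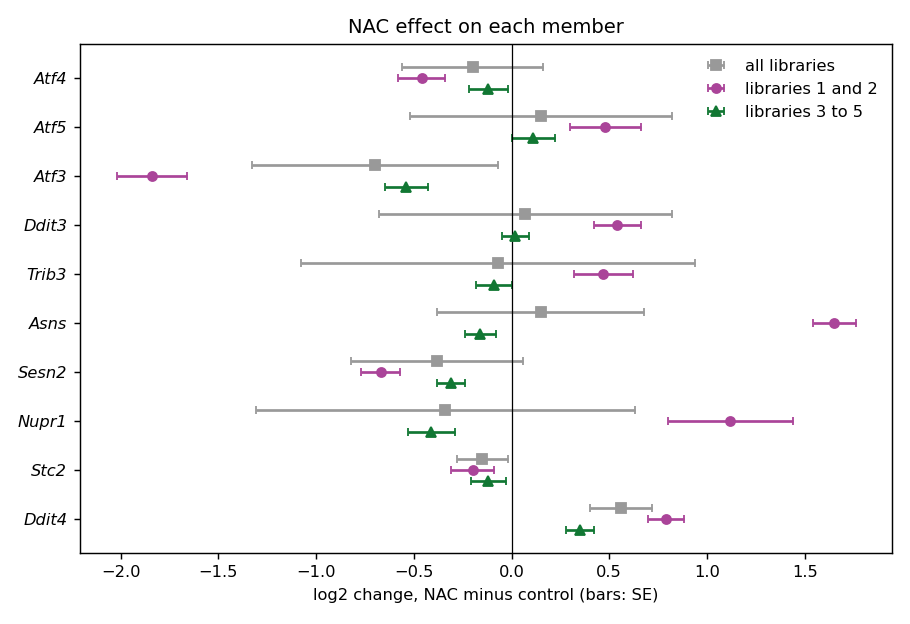
Log2 change, NAC minus control, of each gene over all libraries (squares), in libraries 1 and 2 (circles) and in libraries 3 to 5 (triangles); bars are the SE. Asns and Nupr1 lie on opposite sides of 0 in the 2 sets (1.65 against -0.16, and 1.12 against -0.41), while Atf3, Sesn2 and Ddit4 each keep a side.

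The effect of NAC differed between the sets for 7 of the 10 genes in the interaction test, where 41.9% of all genes tested were called. Asns, Nupr1, Trib3, Ddit3 and Ddit4 had the higher change in libraries 1 and 2, and Atf3 and Sesn2 the lower. For Atf4, Atf5 and Stc2 the difference did not pass, which does not show that the sets responded alike; for Atf4 and Atf5 it rests on which of NAC 1 and NAC 2 is kept, as given above. The 5 genes with the widest gaps between the control sets, Nupr1, Trib3, Ddit3, Atf5 and Asns, all had a called rise in libraries 1 and 2. So did Ddit4 (log2 change 0.79), whose difference between the control sets was only -0.18, and 32.2% of all genes tested were called higher there. Those 2 comparisons share control libraries 1 and 2, so this is a description of values and not independent support.

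Among 40 other ATF4 targets, genes of amino acid synthesis, amino acid transport, tRNA charging and stress, 38 were tested and the difference between the sets was again broad. In control libraries 36 of the 38 were higher in libraries 3 to 5, 1 was lower and 1 was not called, with a median log2 difference of 1.09. Both exceptions are named after their values were seen. The lower gene was Cdkn1a, a cell cycle inhibitor that p53 also induces, and the uncalled gene was Mars1, the methionyl-tRNA synthetase gene. Over all libraries none of the 38 was called with NAC in edgeR's test, where 11.6% of all genes tested were called. None had an unadjusted p below 0.05, and DESeq2 called none. Both tests counted the step between the sets as spread, so they cannot show that NAC left these genes unchanged. Their median log2 change was -0.06. Within the sets, 18 rose and 9 fell in libraries 1 and 2 (median 0.17), and 4 rose and 14 fell in libraries 3 to 5 (median -0.11). Over all genes tested 60.5% and 29.0% were called in these sets. Between the control sets 26.2% of all genes were higher in libraries 3 to 5 and 25.3% were lower. These shares, and the 11.6% called over all libraries, also stand as the background for the counts of the lists that follow.

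Named by abundance, Phgdh and Slc1a5 show both patterns. Phgdh, the first enzyme of serine synthesis, ranged from 488 to 502 CPM in controls 1 and 2 and from 671 to 834 CPM with NAC. The second set ranged from 931 to 986 CPM in control and from 724 to 786 CPM with NAC. It rose in the first set and fell in the other (log2 change 0.60 and -0.32, edgeR adjusted p = 0.000112 and 0.0079), and the sets differed (adjusted p = 9.84e-05). Slc1a5, a glutamine transporter, fell in libraries 1 and 2 (-0.30, adjusted p = 0.00398) and did not pass in libraries 3 to 5 (-0.12, adjusted p = 0.176).

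Some further targets were picked after their values had been seen. Pycr1 and Aldh18a1 encode enzymes of proline synthesis, and Aldh1l2 a mitochondrial folate enzyme. Pycr1 went from 3.17 to 3.52 CPM in control libraries 1 and 2 to 21.1 to 22.7 CPM with NAC (log2 change 2.71, edgeR adjusted p = 5.24e-09), and from 43.9 to 45.3 CPM to 53.8 to 60.8 CPM in libraries 3 to 5 (0.34, adjusted p = 0.00366). Aldh1l2 rose in both sets as well (2.13 and 0.46, adjusted p = 3.64e-06 and 0.00337), while Aldh18a1 rose in libraries 1 and 2 (0.37, adjusted p = 0.000289) and did not pass in libraries 3 to 5 (0.01, adjusted p = 0.866), with an adjusted p of 0.0045 for the difference. In the other direction, Slc7a11, the cystine importer, and Cth, which makes cysteine from cystathionine, were lower in both sets. Cth was at 277 to 291 CPM in control libraries 3 to 5 and at 178 to 184 CPM with NAC (-0.64, adjusted p = 0.000578). In the first set it was at 33.5 to 37.7 CPM and 17.4 to 27.5 CPM (-0.66, adjusted p = 0.00162). Slc7a11 changed by -0.73 in libraries 1 and 2 (adjusted p = 0.0286), where it was only at 1.30 to 2.26 CPM, and by -0.45 in libraries 3 to 5 (adjusted p = 0.0112). 

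**Figure D4:**
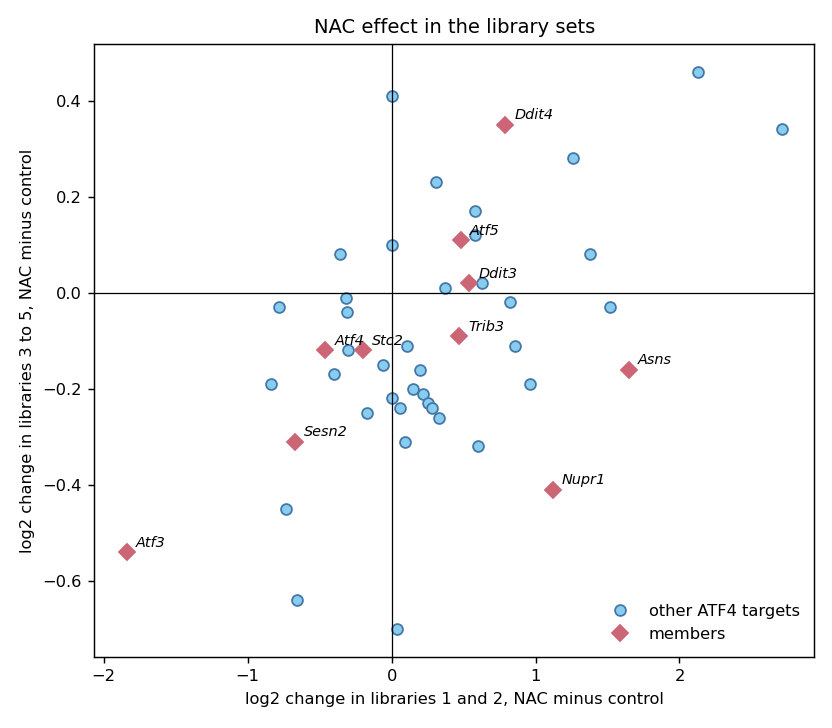
Log2 change with NAC in libraries 1 and 2 (x axis) and in libraries 3 to 5 (y axis; its scale is narrower) for the 10 genes (diamonds, named) and the 38 other ATF4 targets tested (circles). Ddit4 and Atf3 lie in opposite quadrants, and Asns and Nupr1 lie at the lower right, higher in the first set and lower in the other.

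Upstream of ATF4, the 7 genes of eIF2 alpha kinases, phosphatase subunits and eIF2 alpha itself were all tested and, as a list, showed no such step. Between the control sets 1 was higher in libraries 3 to 5, 1 was lower and 5 were not called, with a median log2 difference of -0.07. Picked after their values were seen, the higher gene was Ppp1r15a, itself a target of ATF4, which encodes GADD34, the inducible phosphatase subunit (log2 difference 1.88, edgeR adjusted p = 2.26e-09), and the lower was Eif2ak4, the kinase GCN2 (-0.29, adjusted p = 0.0264). Over all libraries none of the 7 was called with NAC in edgeR's test. Of these, 3 had an unadjusted p below 0.05, and DESeq2 called 2, both lower. The most abundant were Eif2s1, which encodes eIF2 alpha (295 ± 10.1 CPM in control and 248 ± 26.3 CPM with NAC, SD, n = 5, edgeR adjusted p = 0.0765), and Ppp1r15b, the constitutive phosphatase subunit (183 ± 7.72 and 157 ± 27.2 CPM, adjusted p = 0.234). In libraries 1 and 2, 1 rose and 4 fell, Ppp1r15a among them (-0.93, adjusted p = 6.79e-06), and in libraries 3 to 5 only Eif2s1 passed (-0.29, adjusted p = 0.00857).

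Of 21 partner and related leucine zipper factors 18 were tested. In control, 11 were higher in libraries 3 to 5, 1 was lower and 6 were not called (median log2 difference 0.46). Over all libraries NAC raised Xbp1, the factor of another arm of the unfolded protein response, from 127 ± 6.72 to 180 ± 6.28 CPM (SD, n = 5; log2 change 0.51 ± 0.07, edgeR adjusted p = 0.00304). It lowered Junb, an AP-1 subunit, from 530 ± 45.8 to 427 ± 19.8 CPM (-0.31 ± 0.08, adjusted p = 0.0368). The other 16 did not pass. Whether these 2 calls hold when a library is left out was not checked. In libraries 1 and 2, 3 of these factors rose and 9 fell (median -0.41), where 32.2% of all genes were called higher and 28.3% lower. In libraries 3 to 5, 3 rose and 3 fell (median 0.04), where 15.0% of all genes were called higher and 14.0% lower.

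Genes of the unfolded protein response outside ATF4 did not, as a list, step in 1 direction between the sets. Of the 21 targets of XBP1 and ATF6, all tested, 6 were higher and 10 lower in control libraries 3 to 5 than in control libraries 1 and 2, with a median log2 difference of -0.23. Picked after their values were seen, Herpud1 (1.5), Dnajb9 (1.34) and Sel1l (1.1) were among the 6, each above Atf4 (1.04). Sdf2l1 (-1.08) was among the 10. Of all genes tested, 26.2% were higher and 25.3% lower. Over all libraries only Ero1b, an oxidase of protein folding, was called with NAC, rising from 11.3 ± 2.53 to 17.1 ± 0.827 CPM (SD, n = 5, edgeR adjusted p = 0.0332). Within libraries 1 and 2, 3 rose and 11 fell (median -0.29), among them Hspa5, the main chaperone of the endoplasmic reticulum, picked after its values were seen (-0.57, adjusted p = 0.000408). Hspa5 did not pass in libraries 3 to 5 (0.18, adjusted p = 0.136), and the sets differed (adjusted p = 0.000871).

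Ddit4 and Sesn2 were also set beside 12 other brakes on mTORC1 and targets of the FOXO factors, of which 11 were tested. Over all libraries 1 rose and 10 did not pass, with a median log2 change of 0.41. The gene that rose was Sesn1, the p53- and FOXO-controlled relative of Sesn2, from 27.6 ± 3.46 to 51.0 ± 8.41 CPM (SD, n = 5; 0.89 ± 0.13, edgeR adjusted p = 0.00466). It rose in both sets, from 23.5 to 24.1 CPM to 57.7 to 61.8 CPM in libraries 1 and 2 and from 29.4 to 30.9 CPM to 42.4 to 48.4 CPM in libraries 3 to 5. Sesn1 and Sesn2 thus moved in opposite directions in each set. Of the 11, 6 rose and 5 did not pass in libraries 3 to 5 (median 0.59), and 4 rose and 3 fell in libraries 1 and 2 (median 0.18).

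**Figure D5:**
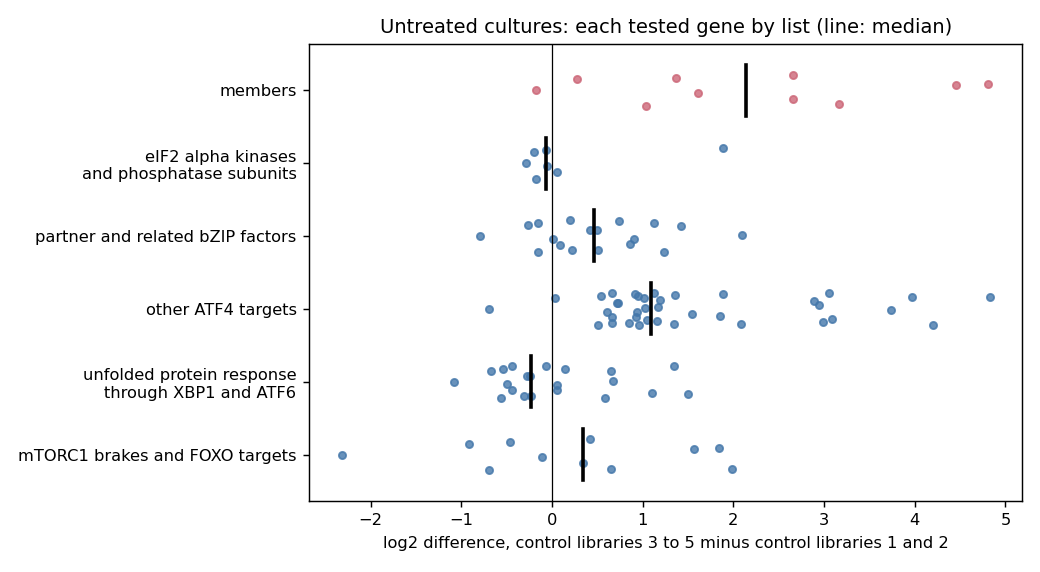
Log2 difference between control libraries 3 to 5 and control libraries 1 and 2 (x axis) for each tested gene, by list (rows), with a black line at each list's median. The medians are 2.13 for the 10 genes and 1.09 for other ATF4 targets, against -0.07 for genes of eIF2 alpha kinases and phosphatases and -0.23 for targets of XBP1 and ATF6.

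The genes whose pattern over the 10 libraries was most like that of Atf4 or Ddit3 were found by the root mean square difference of centred log2 CPM among 8617 genes with a mean of at least 10 CPM. For Atf4 these were Slc7a5 (0.0965), Smim10l1 (0.114), Mia2 (0.115), Cr1l (0.12) and Lins1 (0.126). Slc7a5 encodes a chain of the large neutral amino acid transporter. Sesn2 ranked 71 by this measure, and the other 8 genes of the group ranked 902 or lower. For Ddit3 they were Slc6a9 (0.165), Cyb5r1 (0.184), Chac1 (0.232), Atf5 (0.24) and Ifi27 (0.246). Slc6a9 encodes a glycine transporter and Chac1 an enzyme that degrades glutathione. Nupr1, Trib3 and Asns ranked 47, 52 and 59, and Atf4 itself ranked 169. All 10 libraries enter this measure, so the step between the sets weighs in it. The values were centred but not scaled, so genes that step the same way by different amounts rank as unlike. Nupr1 and Trib3, with log2 steps of 4.81 and 4.45 in control against 1.04 for Atf4, ranked 8548 and 8558 from Atf4.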

How the data were processed

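Read counts per gene and library were used as the authors deposited them, as whole numbers; the FPKM values, per the file headers, scale them by gene length and were used only to compare levels between genes. The builds named, per the submitters' processing notes, are GRCm38 and mm10. Aligner, counter and strand setting: not given in the sources used here. Gene coordinates from the table were not printed, since their build is not settled.

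The test on counts was that of edgeR 4.0.16 in R 4.3.3 (filterByExpr, TMM, robust quasi-likelihood fit), two-sided, with Benjamini-Hochberg adjustment over 11403 genes and a threshold of 0.05. The comparison over all libraries used 2 group means. Comparisons within sets and their difference came from a fit with 4 means, which share a spread. SE was taken as the size of the log2 change over the root of the F statistic. The common biological coefficient of variation was 7.43% with 4 means and 26.6% with 2. CPM values are TMM-normalized. A lone library left by leaving out its partner is assumed to vary like the others.

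Across genes, libraries' deviations from their group mean correlated at r = 0.485 to 0.596 between libraries of the same number, which passes the rule used here for pairs (above 0.1 in every pair). Between other numbers of the same set r was 0.468 to 0.583, so the check does not separate number from set; genes are not independent replicates.

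Named genes are the 10, from each other list the called genes with the smallest adjusted p over all libraries (2 per direction) or else the 2 most abundant, and the 5 genes most like Atf4 and Ddit3; other genes are said to be picked later. The genes and lists were chosen with earlier results of these data known. Alternatives were DESeq2 1.42.0 size factors and its Wald test, library size alone, other filters, the block, a set term, each set alone and each library left out. Calls of single genes outside the 10 were not followed when a library was left out. The fits were tested on simulated counts that held no step between the sets. Those counts therefore do not show how the test over all libraries behaves with such a step. Depth of 13.3 to 17.71 M reads covers counting error only. One marker result is not reported here.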

Additional observations from a re-analysis of the deposited data

Results flagged for a closer look

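The effect of NAC differed between libraries 1 and 2 and libraries 3 to 5 for 7 of the 10 genes by an interaction term in edgeR, where 41.9% of all genes tested were called. The log2 change in libraries 3 to 5 minus that in libraries 1 and 2 was -1.81 for Asns, -1.53 for Nupr1, 1.30 for Atf3, -0.56 for Trib3, -0.51 for Ddit3, -0.45 for Ddit4 and 0.36 for Sesn2. The call ended for Trib3 (adjusted p up to 0.136), Ddit3 (0.081) and Sesn2 (up to 0.177) when certain single libraries were left out. The sets also differ in Cd4 (464 to 521 CPM against 0.765 to 2.76 CPM), and the part of this in the differences was not tested. Single libraries far from the others of a group could not be sought where a gene steps between the sets, and the sets of 2 and 3 libraries are too small for such a search.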

How the results depend on the processing

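Over all libraries 1319 genes were called (763 higher, 556 lower). DESeq2's Wald test called 2287, the replicate block 2254 and a term for the library set 4155; the last 2 called 3 of the 10 genes, Ddit4, Atf3 and Sesn2, in place of 1. Library size alone moved the split to 881 higher and 396 lower. Leaving out 1 library gave 631 to 1405 genes, and 0 to 1 of the 10: 657, 631, 824, 866 and 857 when controls 1 to 5 were left out in turn, and 696 when NAC 2 was. In libraries 1 and 2 a fit to that set alone called 5 of the 10 in place of 9. It did not call Atf4, Atf5, Trib3 or Nupr1. In libraries 3 to 5 the set alone called 5557 genes in place of 3312, and 7 of the 10 in place of 4, with Atf4, Trib3 (log2 change -0.09, adjusted p = 0.0303) and Asns added, all lower. Leaving out 1 library gave 2189 to 5373 genes there, namely 2189 (control 4), 2206 (control 5), 5373 (NAC 1) and 5363 (NAC 2). The cause of these shifts was not tested. Counts for the difference between the sets and for the control sets stayed within 1.5 times of 4778 and 5871 in all alternatives run. No called change of the 10 genes turned its direction in any alternative, and the block changed no other call among them. With 20 to 55 reads in libraries 1 and 2, depth limits the changes of Nupr1 there.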
